A study of Homo sapiens with 6 samples.

Results

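H3K27ac peaks that lie far from coding genes were described in SU-CCS-1 cells, a line established from a human clear cell sarcoma (CCS). The line carries the EWSR1::ATF1 fusion (EA1), in which the transactivating part of EWSR1 is joined to the DNA-binding part of ATF1. All samples came from this single line, without any treatment named in their labels, and comprised 3 H3K27ac ChIP replicates and 3 input replicates. Peaks were deposited as 1 list for the 6 samples, with coordinates and no signal. A peak was counted as far intergenic when it overlapped no annotated gene of any type, lay more than 3 kb from every transcript start, and had its nearer edge more than 50 kb from every start of a protein-coding gene. This rule held for 1510 of 30784 peaks, or 4.91% (95% Wilson interval 4.67 to 5.15). The list has no value per replicate, so no difference between groups of peaks could be tested over samples. Intervals below are 95% intervals that cover counting error only, and comparisons are descriptions of 1 list. The depth behind each peak is unknown.

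Acetylation of lysine 27 on histone H3 (H3K27ac) is found at promoters and enhancers in active use. Enhancers are stretches of DNA at which transcription factors bind and from which they act on promoters, in some cases across long stretches of sequence and past other genes. Clusters of strongly acetylated enhancers are called super-enhancers (SEs), and they often lie near genes that set the identity of a cell. CCS shares with melanocytes the expression of MITF and SOX10, factors of the neural crest lineage. Where a transcription factor sits on DNA, nucleosomes are displaced, and an acetylated enhancer can appear as neighbouring peaks with a short gap between them.

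Sequences from far intergenic peaks, and from the short gaps between neighbouring ones, are shown for some of the motifs that the results below count. They are hg38 reference sequence on the plus strand, 5′ to 3′, and capitals mark the motif on either strand. The AP1 site is TGAGTCA, bound by FOS and JUN dimers. It is shown in a gap of 390 bases inside the region with the most acetylated sequence, which lies between CCDC91 and FAR2, and in a peak with 6 matches near DUSP10.
CCDC91 gap, AP1 site, chr12:28780188-28780387: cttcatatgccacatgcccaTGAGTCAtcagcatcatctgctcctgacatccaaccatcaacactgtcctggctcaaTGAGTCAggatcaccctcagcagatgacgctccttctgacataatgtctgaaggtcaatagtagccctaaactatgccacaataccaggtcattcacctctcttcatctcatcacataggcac
DUSP10 peak, AP1 site, chr1:221994304-221994503: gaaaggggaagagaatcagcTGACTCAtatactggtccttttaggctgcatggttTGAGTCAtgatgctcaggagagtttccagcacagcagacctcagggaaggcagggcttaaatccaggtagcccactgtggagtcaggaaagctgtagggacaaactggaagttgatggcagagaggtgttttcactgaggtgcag

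The ATF/CREB site TGACGTCA is the palindrome that ATF1 dimers bind. Both examples below hold 1 match. The peak near ACKR3 belongs to a region among the 10 with the most acetylated sequence. The gap near GLI3 was the single one of 336 short gaps between far intergenic peaks with this site (0.298%, 0.0526 to 1.67). Gaps between intergenic peaks within 50 kb of a coding start held it in 5 of 392 (1.28%, 0.546 to 2.95). Between distal peaks inside genes it was present in 27 of 2044 (1.32%, 0.909 to 1.915), and the intervals overlapped.
ACKR3 peak, ATF/CREB site, chr2:236775403-236775602: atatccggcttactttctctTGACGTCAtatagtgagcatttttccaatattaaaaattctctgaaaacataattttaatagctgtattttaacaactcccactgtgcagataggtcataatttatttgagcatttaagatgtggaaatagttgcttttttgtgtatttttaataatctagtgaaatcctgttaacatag
GLI3 gap, ATF/CREB site, chr7:42426397-42426596: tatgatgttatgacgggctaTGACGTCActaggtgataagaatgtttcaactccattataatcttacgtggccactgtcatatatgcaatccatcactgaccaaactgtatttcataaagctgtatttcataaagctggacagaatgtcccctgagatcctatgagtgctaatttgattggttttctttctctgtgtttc

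Runs were counted as more than 4 TGA or TCA triplets with up to 5 bases between them. The rule follows the methods of the study, which elsewhere describes such repeats with a shorter gap that was not used here. A gap with 24 triplets measured 360 bases, and the peak before it lay 925.7 kb from UQCRFS1. The M-box TCATGTG, a site of MITF, is shown in a gap of 530 bases near RASEF.
UQCRFS1 gap, runs of TGA or TCA, chr19:28287520-28287719: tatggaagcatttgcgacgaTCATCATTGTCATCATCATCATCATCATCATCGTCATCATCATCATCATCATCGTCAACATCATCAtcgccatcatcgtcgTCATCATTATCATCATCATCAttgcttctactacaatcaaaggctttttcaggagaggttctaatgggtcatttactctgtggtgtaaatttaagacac
RASEF gap, M-box, chr9:82923661-82923860: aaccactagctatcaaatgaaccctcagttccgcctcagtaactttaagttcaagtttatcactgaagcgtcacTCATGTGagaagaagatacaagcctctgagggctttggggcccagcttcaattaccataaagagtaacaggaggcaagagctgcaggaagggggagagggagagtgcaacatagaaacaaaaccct

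Far intergenic peaks were sparse on the ground open to them. Sequence that met the rule amounted to 745.3 Mb, 25.4% of the genome outside assembly gaps, and it held 2.03 peaks per Mb. Intergenic sequence within 50 kb of a coding start held 6.75 peaks per Mb, gene bodies beyond 3 kb from a start held 6.10, and sequence within 3 kb of a start held 36.4. Peaks covered 0.234% of the far intergenic ground, against 1.499% of the whole genome. Only assembly gaps were left out of these lengths, and regions on the ENCODE denylist, from which the study removed peaks, were kept in. Densities per Mb here and below can be too low for that reason, by an amount that was not computed. The 3 classes that far intergenic peaks are compared with below are the 2111 other intergenic peaks, the 8307 distal peaks inside genes and the 18856 promoter peaks.

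Far intergenic peaks had widths close to those of other distal peaks. Their median width was 790 bases (quartiles 530 and 1360), against 790 bases (530 and 1385) for intergenic peaks within 50 kb of a coding start and 770 bases (530 and 1350) for distal peaks inside genes. Promoter peaks were wider, with a median of 1270 bases. The narrowest far intergenic peak measured 400 bases and the widest 10190 bases, and 16 were wider than 5 kb. Broad peak calling joins neighbouring enriched stretches, so width reflects signal height and the joining rule as well as the extent of the mark.

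**Figure D1:**
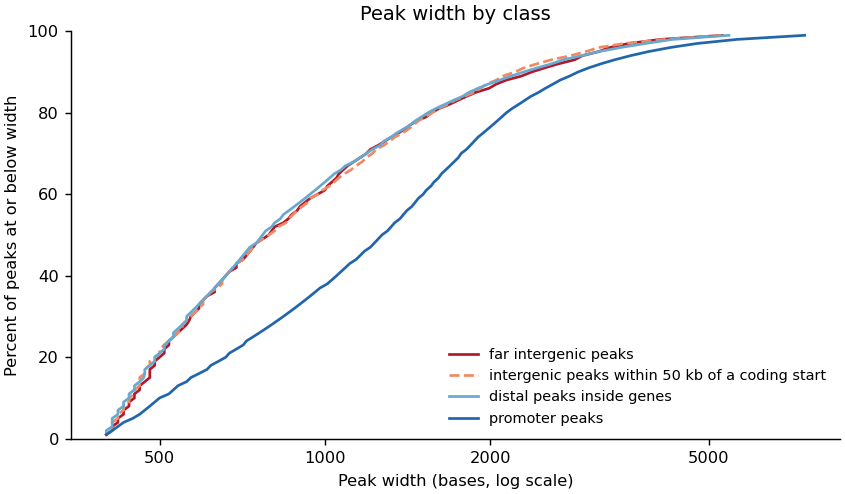
Percent of peaks at or below each width (bases, log scale), from the 1st to the 99th percentile, for the 4 classes of H3K27ac peaks. The curves of the 1510 far intergenic peaks and the other distal classes run together, with medians of 770 to 790 bases, and the promoter curve lies to the right with a median of 1270 bases.

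The widest far intergenic peak, chr2:23240471-23250660, lay 134.5 kb from KLHL29, a kelch-like gene, and 41.4 kb from a long non-coding RNA gene (lncRNA). A peak of 7690 bases followed, 251.7 kb from ERMARD. The next was one of 7660 bases, 249.3 kb from DUSP10, a phosphatase of MAP kinases. Peaks of 7300 and 7290 bases lay 80.2 kb from CCNL1, a cyclin of RNA processing, and 186.8 kb from CCDC91. The peak of 7030 bases nearest to SEMA5A, a semaphorin of axon guidance, was 432.7 kb from its start. Among the 15 widest peaks, the nearest start of any gene type belonged to an lncRNA for most, including TRERNA1 at 4.96 kb from a peak of 5390 bases nearest to UBE2V1.

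Distances to a coding start ran from just over the threshold to several megabases. The closest peaks inside the rule lay at 50037 and 50108 bases, and the closest outside it, among peaks that met its other conditions, at 49977 and 49974 bases. The median distance was 134696 bases (quartiles 79606 and 258602). From 50 to 100 kb there were 567 peaks, from 100 to 250 kb 543, from 250 to 500 kb 241, and beyond 500 kb 159. Peaks wider than 2 kb made up 15.2% and 16.6% of the nearer 2 bins, and 7.88% and 8.81% of the farther 2. Median GC content was 47.3%, 46.1%, 43.6% and 44.2% in the same order. Thus wide peaks were less frequent, and GC content lower, in the bins beyond 250 kb.

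**Figure D2:**
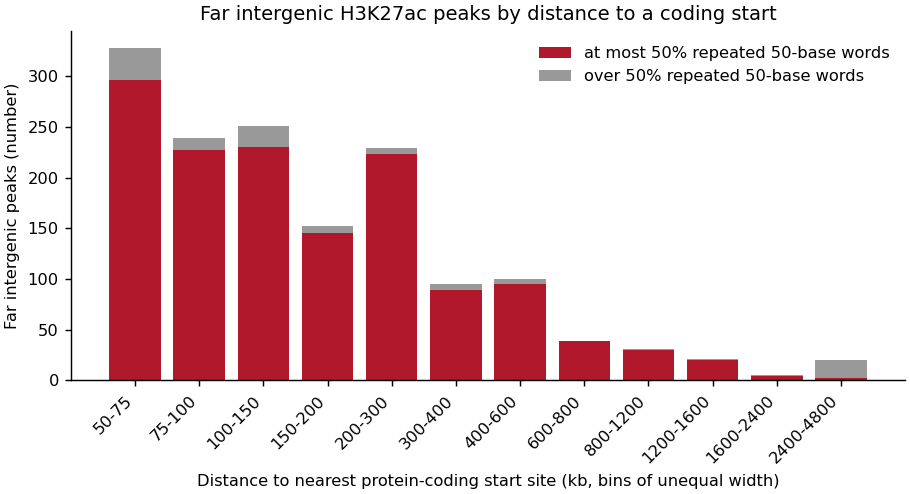
Number of far intergenic peaks by distance of the nearer edge from the nearest protein-coding start (kb, bins of unequal width), split by whether over 50% of a peak's 50-base words occur more than once in hg38. The bin of 50 to 75 kb holds 296 peaks at or under that limit and 32 over it, and in the farthest bin, from 2400 to 4800 kb, 18 peaks are over it and 2 are not.

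Far from coding genes did not mean far from every annotated gene. The nearest start of any type lay at a median of 30616 bases (quartiles 13416 and 58549). It belonged to an lncRNA for 741 peaks (49.1%), to a processed pseudogene for 370 (24.5%) and to a protein-coding gene for 112 (7.42%).

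Part of the far intergenic peaks lay in sequence that occurs more than once in hg38. In 110 of them (7.29%, 6.08 to 8.71) over 50% of the 50-base words recurred elsewhere, while 812 (53.8%) had no such word. The share over that limit was 8.57% for other intergenic peaks, 5.77% for distal peaks inside genes and 3.81% for promoter peaks. Over all peaks it was 4.84%, so repeated sequence was not particular to far intergenic peaks. On chromosome 21, 23 of 45 far intergenic peaks were over the limit. The farthest peaks of all were there, on the short arm, where TPTE is the nearest coding gene and the most distant peak lay 4485 kb from it. For 8 far intergenic peaks, that one included, the nearest start of any type was annotated as an artifact. Distances on this arm depend on which genes the annotation counts as protein-coding. Of the 20 peaks nearest to TPTE, a gene for a phosphatase-related protein of the testis, 18 were repeated. The copy from which the reads of such a peak came cannot be told apart by position. Their median width was 600 bases, against 795 bases for the other 1400.

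Chromosomes differed in how many far intergenic peaks they held. Chromosome 6 had 154, chromosome 2 had 151, chromosome 1 had 107 and chromosome 5 had 101. Among autosomes, their share of the chromosome's own peaks was highest on chromosome 13, at 11.7% (9.68 to 14.2), and lowest on chromosomes 16 and 19, at 1.01% (0.589 to 1.71) and 1.06% (0.662 to 1.69). Per Mb of open ground the order was different. Chromosome 6 held 3.40 and chromosome 20 held 3.37 peaks per Mb, while chromosome 19, with 5.66 Mb of such ground, held 3.003. The X chromosome held 0.663 and chromosome 16 held 0.739. Chromosome 21 held 3.53, with its repeated peaks included.

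Most far intergenic peaks had a close neighbour, though less often than the other distal classes. Another peak lay within 12500 bases, the distance the study used to stitch enhancers, for 61.6% (59.1 to 64.01) of them. Over all peaks this share was 64.01% (63.5 to 64.5), and for promoter peaks it was 57.9% (57.2 to 58.6). The share was 72.0% (70.1 to 73.9) for intergenic peaks within 50 kb of a coding start and 76.2% (75.3 to 77.1) for distal peaks inside genes. At the other end, 14.3% (12.6 to 16.2) of far intergenic peaks had no other peak within 100 kb, against 2.32% (1.76 to 3.06) and 4.17% (3.76 to 4.62) in the same classes. Over all peaks this share was 7.14% (6.86 to 7.43), and for promoter peaks 8.42% (8.03 to 8.82). A neighbour at 1 kb or less was present for 42.9% (40.4 to 45.4) of far intergenic peaks. The share was 39.1% (37.1 to 41.2) for other intergenic peaks and 48.2% (47.1 to 49.3) for distal peaks inside genes. The nearest peak was another far intergenic peak for 1081 (71.6%) and a promoter peak for 281 (18.6%). The rule selects by position, so close neighbours tend to meet it together, and no such share is given here for the other classes. Far intergenic peaks were thus more often isolated than the other distal classes, and their share with a neighbour at 1 kb or less lay between those of the other distal classes.

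All peaks within 12500 bases of each other were joined, and regions made only of far intergenic peaks were ranked by the summed width of their peaks. There were 847 such regions, of which 580 held 1 peak, 169 held 2, 85 held 3 to 5 and 13 held 6 or more. Another 120 regions joined 214 far intergenic peaks (14.2%) to peaks of other classes. Over all peaks, the curve of ranked summed widths, scaled from 0 to 1 on both axes, reached a slope of 1 at 7970 bases, and 879 regions lay past that point. Of these, 19 were made of far intergenic peaks alone and 44 held at least 1. The share of peaks in regions past that point was 10.9% (9.39 to 12.53) for far intergenic peaks, 18.5% (16.9 to 20.2) for other intergenic peaks and 26.4% (25.5 to 27.4) for distal peaks inside genes. For promoter peaks it was 17.65% (17.1 to 18.2), and over all peaks 19.7% (19.3 to 20.2). This ranks width, without signal, and does not name SEs.

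The region with the most acetylated sequence, chr12:28766101-28795200, held 8 peaks with 23.4 kb in a span of 29.1 kb, so that 80.5% of it was in peaks. It lay 186.8 kb from CCDC91, a coiled-coil protein of the Golgi, and 353.8 kb from FAR2, a fatty acyl-CoA reductase. Its first peak measured 7290 bases, the following ones 4630 and 4530 bases, and the last 3290 bases. The gap shown above with a pair of AP1 sites separates its peaks 2 and 3. Both flanking genes had a promoter peak.

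The next region, chr1:221987531-222009120, held 6 peaks with 13.1 kb, 245.4 kb from DUSP10 and 516.1 kb from HHIPL2. DUSP10 had a promoter peak and HHIPL2 had none. Between ERMARD and FAM120B, 4 peaks with 12.9 kb filled 94.0% of chr6:170025281-170039040. The region chr13:97120911-97143100 held 6 peaks with 11.5 kb, 78.3 kb from MBNL2, a splicing regulator with a promoter peak, and 126.2 kb from OXGR1, which had none. Near RASEF, a Rab GTPase gene, 6 peaks held 11.3 kb. A region of 6 peaks lay 286.2 kb from RUNX2, a runt factor of the osteoblast lineage that had a promoter peak, and 195.3 kb from CLIC5, which had none. Its peaks were spread over 33.4 kb, 31.8% of which was acetylated. Regions of 4 and 3 peaks, with 10.1 kb each, lay 53.1 kb from UBE2V1 and 203.2 kb from ACKR3, an atypical receptor of the chemokine CXCL12. The former also lay 63.5 kb from SNAI1, a repressor of epithelial genes, and both UBE2V1 and SNAI1 had a promoter peak. Another region of 4 peaks, with 9.31 kb, lay 291.4 kb from ACKR3 and 197.5 kb from COPS8, in the same interval as the other region near ACKR3.

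**Figure D3:**
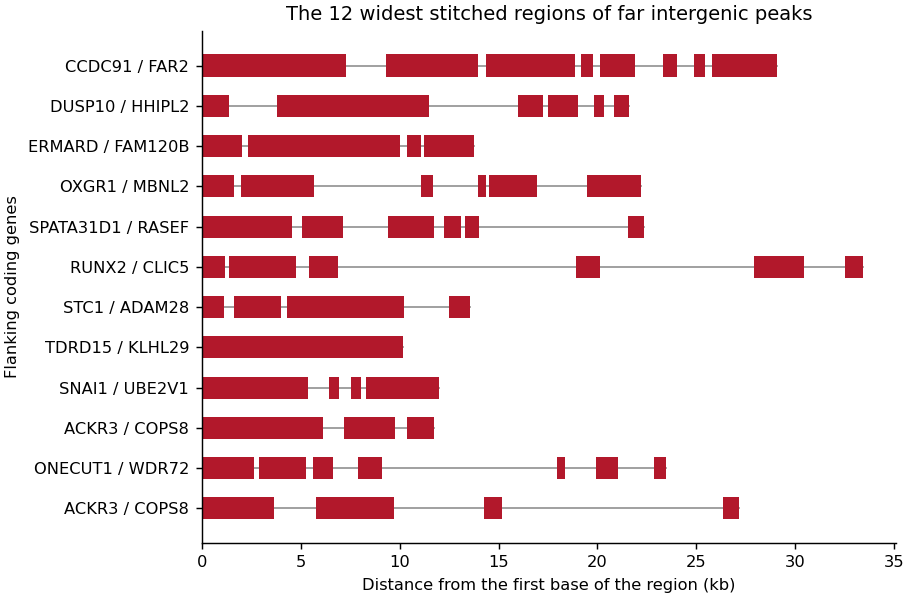
Layout of the 12 stitched regions with the largest summed width among regions made only of far intergenic peaks, as distance from the first base of each region (kb). Blocks are peaks and lines the sequence between them, with flanking coding genes at left. The top region holds 8 peaks with 23.4 kb, and the region near KLHL29 is a single peak of 10.19 kb.

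Far intergenic peaks were then counted by the intervals between coding starts, which can hold non-coding genes. Coding starts more than 100 kb apart with open ground between them bounded 3029 intervals, of which 592 (19.5%) held a far intergenic peak. The median length of intervals with a far intergenic peak was 433.1 kb, against 216.3 kb for those without. In 94 intervals there were 5 or more, which together held 663 of the 1510 peaks (43.9%). The interval between PGRMC2 and JADE1 held 14, of which 12 were nearest to JADE1, at 139.5 to 249.2 kb from this scaffold of a histone acetyltransferase complex. The interval between SPATA31D1 and RASEF also held 14, all nearest to RASEF at 101.7 to 263.8 kb. Between KLF4, a zinc finger factor of epithelial and stem cells, and ACTL7B there were 14 in 1365.5 kb, 10 of them nearest to KLF4. The interval between NYAP2 and IRS1 held 13, of which 11 were nearest to IRS1, the insulin receptor substrate. Between ONECUT1 and WDR72 there were 13, and between SEMA6A and DTWD2 there were 12 in 2413.4 kb, all 12 nearest to SEMA6A. DUSP4, another MAP kinase phosphatase, was nearest to 12, at 170.9 to 313.9 kb.

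To ask whether genes beside these peaks carried the mark at their own start, promoter peaks were counted at their nearest coding genes. Nearness in sequence does not show that a peak acts on a gene. There were 696 nearest genes, of which 362 were nearest to 1 peak and 69 to 5 or more. A promoter peak was present at 492 of them, 70.7% (67.2 to 73.95), against 63.4% of all 20033 protein-coding genes. Genes beside open ground that were nearest to no far intergenic peak had one in 57.3% (55.7 to 58.9). The share was 68.2% (63.3 to 72.8) for genes nearest to 1 far intergenic peak, 73.1% (67.01 to 78.5) for 2 to 3 and 73.8% (64.8 to 81.2) for 4 or more, with overlapping intervals. Genes nearest to an intergenic peak within 50 kb had a promoter peak in 78.3% (76.0 to 80.4). Of the 1135 flanking genes, 68.9% (66.15 to 71.5) had a promoter peak. Of 1479 far intergenic peaks with a coding start on each side, both flanking genes were marked for 716 (48.4%), 1 for 655 (44.3%) and neither for 108 (7.30%). These counts have no background here, since the same shares over all intervals between coding starts were not computed.

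The open ground beside marked and unmarked genes was then compared, since a longer stretch can hold more peaks. Ground was assigned to the nearer start, with chromosome ends left out and the surroundings of non-coding starts kept in. Genes with a promoter peak had a median of 53.4 kb of it and genes without one a median of 57.98 kb. Ground beside marked genes held 2.58 far intergenic peaks per Mb, with 1076 peaks in 417.1 Mb. Ground beside unmarked genes held 1.17 per Mb, with 403 peaks in 345.3 Mb. The density was thus higher beside marked genes at similar median lengths of ground.

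**Figure D4:**
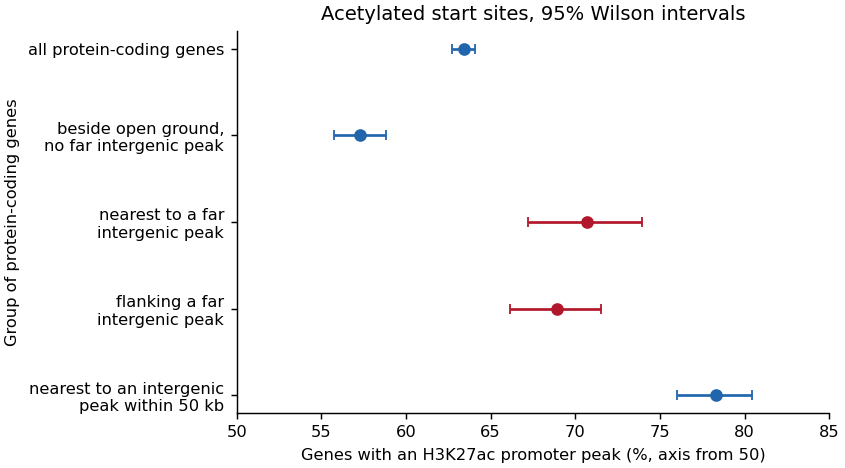
Share of protein-coding genes with an H3K27ac promoter peak (%, axis from 50) in 5 groups of genes, as points with 95% Wilson intervals. Genes nearest to a far intergenic peak sit at 70.7%, above the 63.4% of all coding genes and the 57.3% of genes beside open ground without such a peak, and below the 78.3% of genes nearest to an intergenic peak within 50 kb.

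Lists of genes with roles in this tumor and its lineage were set against the 3.47% of all protein-coding genes that were nearest to a far intergenic peak. The lists were chosen with earlier results of these data known. Among neural crest and melanocyte transcription factors, 13 of 43 were nearest to one (30.2%, 18.6 to 45.1), with 17 peaks in all. SOX9, a SOX factor of neural crest and cartilage, was nearest to 3 at 144.9 to 816.9 kb and had no promoter peak. IRF4, a pigmentation factor, was nearest to 2 at 86.2 and 87.2 kb, and TFAP2A, a neural crest factor, to 2 at 947.5 and 952.7 kb. SNAI2, ID4, TBX3, SOX6, EGR2, NR2F1, NR2F2, TFAP2C and DLX6 were nearest to 1 each and had a promoter peak, while TFAP2B was nearest to 1 and had none. A promoter peak was thus present at 11 of the 13, and at 35 of all 43 in the list (81.4%). MITF and SOX10 were nearest to none. These factors stood beside long open ground, with a median of 219.5 kb against 55.2 kb over all coding genes with such ground. Per Mb of it they had 1.81 far intergenic peaks, against 1.94 per Mb over all coding genes. Of the 35 factors beside open ground, 37.1% (23.2 to 53.7) were nearest to a far intergenic peak. The share was 15.3% (14.2 to 16.3) over all coding genes beside such ground. The density rests on 17 peaks and carries no interval, and the part of ground length in the share was not tested.

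Of developmental transcription factor families 29 of 222 genes (13.1%, 9.25 to 18.1) were nearest to a far intergenic peak, and the density was 2.27 per Mb, against 1.94 per Mb over all coding genes. Among the 108 beside open ground the share was 26.85% (19.4 to 35.9). FOXP1, a forkhead factor, was nearest to 6 at 65.3 to 194.8 kb, and IRX1, an Iroquois homeobox factor, to 5 at 193.3 to 283.3 kb. FOXP1 had a promoter peak and IRX1 had none. Of neural adhesion and axon guidance families 23 of 184 (interval 8.48 to 18.1%) were nearest to one, yet their density was 0.758 per Mb, on a median of 584.4 kb of ground. Among the 75 beside open ground the share was 30.7% (21.4 to 41.8). SEMA6A led this list with 12 peaks, followed by CDH5, the cadherin of endothelium, with 4 and no promoter peak. ROBO1, an axon guidance receptor, had 3 and a promoter peak. Olfactory receptor genes were nearest to one in 4 of 416 cases (0.962%, 0.375 to 2.45), and skeletal muscle genes in 0 of 21 (0 to 15.5). Few of these genes stood beside open ground, namely 33 olfactory receptor genes and 2 muscle genes. Of the 33, 12.1% (4.82 to 27.3) were nearest to a far intergenic peak, against 15.3% (14.2 to 16.3) of all coding genes beside such ground, with overlapping intervals. The density on the ground of olfactory receptor genes was 0.537 per Mb.

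Genes of the ATF/CREB and AP1 families and their partners were nearest to a far intergenic peak in 4 of 45 cases (8.89%, 3.51 to 20.7). All 4 had a promoter peak, as did 41 of the 45 genes in the list (91.1%). NFIL3, a leucine zipper repressor, was nearest to 5 at 64.1 to 91.7 kb. SIK1, a kinase that restrains CREB coactivators, was nearest to 5 at 60.1 to 111.9 kb. BACH2, a leucine zipper factor, was nearest to 3 and CEBPB, a C/EBP factor, to 2. Their list had 15 peaks on 2.02 Mb of ground, or 7.43 per Mb. All 15 lay beside these 4 genes, of 14 in the list with open ground (28.6%, 11.7 to 54.7). The density carries no interval, and neighbouring peaks beside 1 gene are not independent. Pigment cell genes were nearest in 2 of 29 cases (6.90%, 1.91 to 22.0), namely SEMA6A with 12 peaks and BACE2, a protease that processes the pigment protein PMEL, with 3 at 52.1 to 58.9 kb. Of 10 genes that the study tied to SEs by position or by looping, NFIL3 and TFAP2A were nearest to one. The study chose that list partly on these libraries, so it is not independent evidence.

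Far intergenic peaks had less GC than the other classes. The median GC content was 46.1% (quartiles 41.7 and 51.3), against 49.7% for intergenic peaks within 50 kb of a coding start, 47.5% for distal peaks inside genes and 58.2% for promoter peaks. The median number of CpG per kb was 11.4, against 17.4, 14.3 and 52.7 in the same order. CpG-dense exceptions included a pair of peaks 234.5 and 366.7 kb from BCOR, a corepressor gene with a promoter peak, with 125 and 115.3 CpG per kb and no repeated words. These were named after their values were seen.

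Motifs were counted on both strands in the central 500 bases of each peak. TGACGTCA is one form of TGANNTCA, and runs of triplets can contain either. A match is a string of letters and not a bound site. TGACGTCA was present in 6 of 1510 far intergenic peaks (0.397%, 0.182 to 0.864), against 0.521% of other intergenic peaks, 0.313% of distal peaks inside genes, 1.501% of promoter peaks and 1.09% of all other peaks. With so few matches, a difference from the other distal classes was not detectable. The flexible form TGANNTCA was present in 24.04% (21.95 to 26.3), below 28.0% of other intergenic peaks (ratio 0.857, 0.766 to 0.960) and 28.4% of distal peaks inside genes (ratio 0.847, 0.770 to 0.933). It was present in 15.1% of promoter peaks and 19.8% of all other peaks, which differ in GC content. TGAGTCA was present in 8.74% (7.42 to 10.3), next to 8.57% and 8.56% in the other distal classes and 6.53% of all other peaks. Runs of TGA or TCA were present in 3.71% (2.87 to 4.79), against 2.89%, 3.64% and 2.23% in the same order.

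The SOX site ACAATG was more frequent in far intergenic peaks than in each other class. It was present in 24.2% (22.1 to 26.5), against 18.8% of other intergenic peaks (ratio 1.29, 1.14 to 1.46), 20.9% of distal peaks inside genes (ratio 1.16, 1.05 to 1.28) and 14.9% of all other peaks. The TEAD site CATTCC was present in 26.6% (24.5 to 28.9), against 21.4%, 23.4% and 20.1% in the same order. The SOX site is rich in A and T, and GC content differed between the classes. Among central windows with 40 to 50% GC, a setting chosen after the data were seen, the SOX site was present in 26.3% of 752 far intergenic peaks, against 20.8% of 909 other intergenic peaks (ratio 1.27, 1.06 to 1.51) and 22.3% of 4010 distal peaks inside genes (ratio 1.18, 1.03 to 1.35). In these windows the TEAD ratios were 1.20 (1.01 to 1.42) and 1.10 (0.967 to 1.26), and TGANNTCA remained lower, at 28.2% against 36.1% and 35.4%. Promoter peaks with such windows held TGANNTCA in 31.4% (ratio 0.899, 0.794 to 1.02), so far intergenic peaks were not above them at this GC content.

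The M-box TCATGTG was present in 8.01% of far intergenic peaks (6.75 to 9.49), above 5.16% of other intergenic peaks (ratio 1.55, 1.21 to 1.99) and near 7.42% of distal peaks inside genes (ratio 1.08, 0.896 to 1.30). It was present in 4.87% of all other peaks. At 40 to 50% GC the former ratio was 1.23 (0.872 to 1.73). The related E-box form TCACGTG was present in 1.92%, against 2.18%, 2.60% and 3.62% of other intergenic, intragenic and all other peaks. The RUNX site TGTGGTT was present in 8.74%, against 7.49%, 8.13% and 6.23%. The TFAP2 site GCCNNNGGC was present in 15.8%, against 18.6%, 14.95% and 31.2%, and the ETS site CCGGAAG in 2.58%, against 4.26%, 2.73% and 9.16%. At 40 to 50% GC the TFAP2 ratio to other intergenic peaks was 0.996 (0.737 to 1.35).

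**Figure D5:**
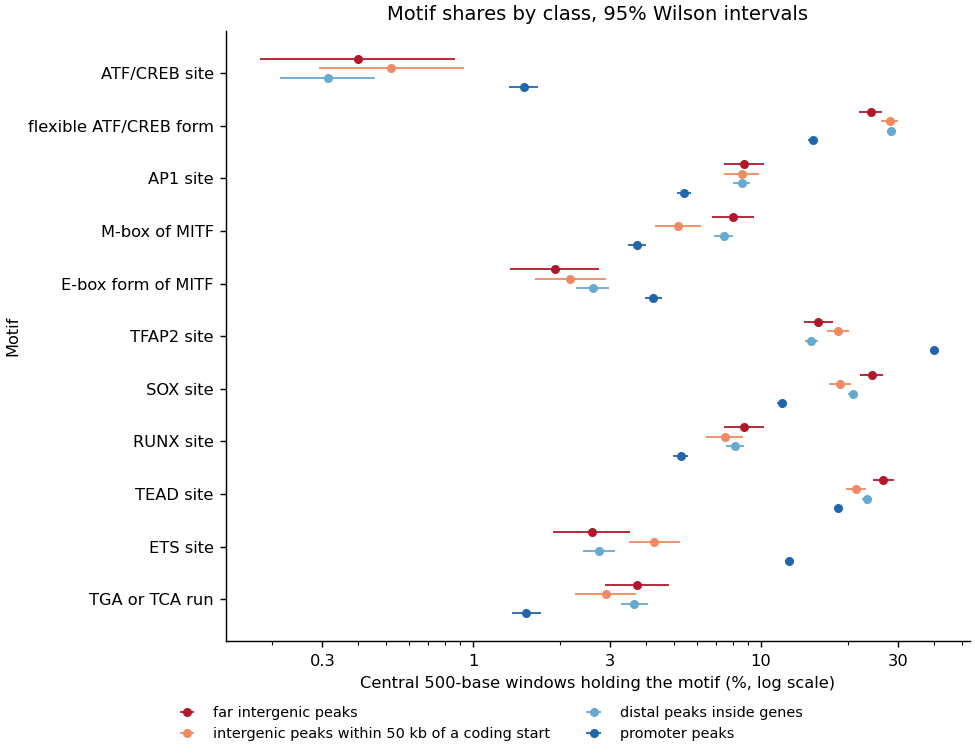
Share of central 500-base windows that hold each of 11 motifs (%, log scale) in the 4 classes of peaks, as points with 95% Wilson intervals. Far intergenic peaks hold the SOX site in 24.2% and the TEAD site in 26.6%, above the other classes, and hold the ATF/CREB site in 0.397%, within the range of the other distal classes and below the 1.501% of promoter peaks.

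Short gaps of 50 to 1000 bases between neighbouring far intergenic peaks held some motifs at a higher density than the peaks themselves and others at a lower one. There were 336 of these gaps, with a median of 375 bases. The SOX site occurred 1122 times per Mb of gap and 579.3 times per Mb of peak, the AP1 site 381.1 and 202.9 times, the RUNX site 374.0 and 196.5 times, the M-box 268.2 and 173.0 times, and runs of TGA or TCA 261.1 and 87.9 times. The TFAP2 site occurred 268.2 times per Mb of gap and 355.7 times per Mb of peak, and the E-box form TCACGTG 35.3 and 54.6 times. The direction was the same in the other intergenic class for the SOX site, with 871.5 and 426.6, and for the AP1 site, with 313.5 and 176.9. So it was for the RUNX site (326 and 170.2), the M-box (238.3 and 126.1) and runs (169.3 and 66.6). Peaks inside genes and promoter peaks also had these motifs at higher density in gaps. The E-box form was instead denser in gaps of the other intergenic class (68.97 and 56.18) and inside genes (76.6 and 62.4). The ATF/CREB site occurred once in gaps and 16 times in peaks, or 7.06 and 9.2 times per Mb. In the other intergenic class it occurred 31.35 and 12.07 times per Mb, on 5 matches in gaps. Inside genes the values were 30.4 and 7.7 per Mb, on 27 matches in gaps. Gaps had a mean GC content of 40.6%, lower than that of the peaks, and the part of base composition in these densities was not tested.

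Gaps between far intergenic peaks were set against gaps between peaks of other classes. The SOX site was present in 133 of the 336 gaps (39.6%, 34.5 to 44.9), against 29.6% (25.3 to 34.3) of gaps between other intergenic peaks and 29.3% (27.3 to 31.3) of those inside genes. The gaps had medians of 360 and 390 bases in these classes. Among gaps with 35 to 45% GC, also chosen after the data were seen, the shares were 43.6% (36.5 to 50.9), 32.98% (26.7 to 39.9) and 32.8% (29.95 to 35.7). The AP1 site was present in 44 of 336 (13.1%, 9.90 to 17.1), 49 of 392 and 229 of 2044 of all gaps, and the M-box in 10.7%, 8.93% and 10.2%. Runs of TGA or TCA were present in 10.1% (7.33 to 13.8), 6.63% (4.57 to 9.54) and 6.85% (5.83 to 8.03). Among gaps with 35 to 45% GC the shares with runs were closer, at 10.6%, 9.42% and 8.65% in the same order. The M-box was present in 9.50%, 14.1% and 10.4% of these gaps, and the AP1 site in 14.5%, 16.75% and 12.8%. For each of these motifs the intervals of the classes overlapped. In the gap near UQCRFS1 shown above, 1 run held 18 triplets. A gap with 5 AP1 sites, named after its values were seen, held 3 of them within 200 bases, and the peak before it lay 437.8 kb from B3GAT1.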

How the data were processed

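Chromatin from SU-CCS-1 was sequenced after H3K27ac immunoprecipitation (3 replicates) or as input (3 replicates). Per the labels and the study's methods, alignment to hg38 by the authors used BWA-MEM 0.7.10-r789. They then removed duplicates with samtools, and called broad peaks with MACS2 2.2.6 over input, leaving out regions on the ENCODE denylist. The deposited list gives chromosome, start, end and name for each peak, with no score, count or value per replicate. Whether the caller ran on pooled reads or on each replicate before a merge is not given in the sources used here. A locus without a peak may still be acetylated below the cutoff.

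Gene bodies and starts were taken from GENCODE 44. Coordinates count from 1. Distances run from the nearer edge of a peak. Motifs were matched exactly on both strands of hg38, in the central 500 bases of each peak. As the genome sequence marks no repeats, words of 50 bases, taken every 10 bases, were counted as repeated when they recurred on either strand. Shares carry 95% Wilson intervals and ratios 95% intervals on the log scale. No tests were run, because 1 list holds no replicates and its peaks are not independent. The code was tested on simulated data (Python 3.11.15, numpy 2.4.6, scipy 1.17.1, pysam 0.24.0, numba 0.67.0). Alternatives changed distances, windows, gene sets and peak widths. Genes named were the nearest genes of the 15 widest peaks, the genes beside the 15 regions with the largest summed width, the 15 genes nearest to the most peaks, members of the 8 gene lists, and genes beside printed sequences, the latter sought outside chromosome 8. Genes that bound intervals with many peaks, and those marked so in the text, were named after their values were seen. The peaks, lists and alternatives were chosen with earlier results of these data known.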

Additional observations from a re-analysis of the deposited data

How the results depend on the processing

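In all, 89 alternative values were computed for 16 results, and 79 stayed within the interval of the reported value or, for the count of peaks, within 1.5 times of it. The number of far intergenic peaks was 943 beyond 100 kb, 2437 when only coding gene bodies had to be avoided, and 533 when only the widest 50% of all peaks were used, since fewer peaks enter that list. The share with a neighbour was 54.6% within 5 kb, 68.3% within 25 kb and 47.3% among the widest 50% of peaks. When only the widest 50% of peaks could mark a promoter, 57.3% of nearest coding genes were marked, against 48.9% of all coding genes. The median GC content was 46.6% in the central 500 bases. Of 66 alternatives for motif ratios to other intergenic peaks, 2 moved, namely TGANNTCA in the central 200 bases, with a ratio of 0.740, and GCCNNNGGC at 40 to 50% GC, with a ratio of 0.996; the cause was not tested. Leaving out peaks of repeated words, chosen after the data were seen, left 1400 far intergenic peaks and kept their median width (795 bases), neighbour share (63.1%) and share of marked nearest genes (71.2%) inside the intervals given above. The share of bases in repeats was not computed, because the genome sequence used here marks none. No replicate could be left out, and the read depth that limits which loci were called is not in the list. No paired analysis was possible because the deposited list holds no values per replicate and no result comes from a test.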
